A study of Mus musculus with 6 samples.

Results

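Myo5c, Mal2 and 7 further unconventional myosin genes were followed in mouse brown adipose tissue, the fat depot that burns fuel to make heat. The 9 genes were Myo5a, Myo5b, Myo5c, Myo1c, Myo1d, Myo1e, Myo6, Myo10 and Mal2, and all probe sets that the platform annotation gave to one of these symbols were taken, 19 of the 22626 probe sets and 9 of the 12393 genes that could be tested. Affymetrix arrays had been hybridised with RNA of brown fat from mice 3.5 months old, of mixed C57BL6 and 129 background, which had been on high fat food for 3 months. The control group held 3 arrays from YY1flox/flox mice. The YY1bKO group held 3 arrays from YY1flox/flox mice with Ucp1Cre in addition, a transgene in which the Ucp1 promoter, active in brown adipocytes, drives Cre recombinase, so that other cells of the tissue keep Yy1, which encodes the transcription factor Yin Yang 1. Floxed alleles, diet, age and background were shared by both groups. Since controls carried no Cre, the presence of the transgene and the loss of Yy1 cannot be told apart.

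The set was chosen by the measured differences between the groups: Myo5c and Mal2 were selected on theirs, which were among the most negative, and the other myosins as relatives of Myo5c. The differences of these genes between YY1bKO and control arrays are therefore a description. Calls of these genes by limma are counted below, but they are no evidence beyond the choice. All values are log2 intensities unless a linear intensity is named, and a difference is always YY1bKO minus control. The tissue is bulk, so fewer cells of a type and less RNA per cell cannot be told apart.

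Unconventional myosins are motors that walk along actin filaments and carry or tether membranes rather than build contractile filaments. Class V motors move vesicles towards the growing end of the filament, and their tails bind Rab proteins and adaptors on the cargo. Myo5a moves pigment granules and has been tied to the traffic of the glucose transporter GLUT4 in fat cells, Myo5b works on recycling endosomes, and Myo5c is best known from secretory epithelia and glands. Class VI walks the other way, class I motors link membrane to cortical actin, and class X builds filopodia. Mal2 is not a motor but a small membrane-spanning protein of the MAL family, known for carrying proteins across polarised epithelial cells to the apical surface.

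Promoters were looked at because the groups differ in a DNA-binding factor, but the arrays measure RNA, and binding to promoters was not tested. RefSeq promoters of GRCm38.p6 were used for 6 of the 9 genes, 9 promoters in all. They were taken with a filter that left out a chromosome, so further member promoters may exist. The filter was not applied to the set of all promoters, with which the members are compared below. Mal2, Myo5b and Myo1d have no window here, which because of the filter does not show that none is annotated. The windows of Myo5c, which was far lower in YY1bKO tissue, of its neighbour and paralog Myo5a, and of Myo10, which was moderately lower, are shown as the 250 bases before the annotated start, all on the plus strand. Capitals mark CCAT or its reverse complement ATGG, the central letters of the known Yin Yang 1 motif. The Myo5c window lies at chr9:75231764-75232013, that of Myo5a at chr9:75070956-75071205, and that of the first of 2 Myo10 starts at chr15:25622300-25622549.
Myo5c: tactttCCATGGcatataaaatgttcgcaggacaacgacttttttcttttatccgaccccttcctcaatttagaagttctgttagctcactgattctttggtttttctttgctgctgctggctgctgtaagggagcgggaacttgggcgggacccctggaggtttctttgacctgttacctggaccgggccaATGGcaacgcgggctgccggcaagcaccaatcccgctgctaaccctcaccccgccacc
Myo5a: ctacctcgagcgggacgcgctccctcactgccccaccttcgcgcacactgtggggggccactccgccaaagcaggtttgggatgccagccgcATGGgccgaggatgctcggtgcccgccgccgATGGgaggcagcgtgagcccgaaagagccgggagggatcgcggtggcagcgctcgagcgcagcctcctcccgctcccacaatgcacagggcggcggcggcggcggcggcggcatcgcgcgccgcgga
Myo10: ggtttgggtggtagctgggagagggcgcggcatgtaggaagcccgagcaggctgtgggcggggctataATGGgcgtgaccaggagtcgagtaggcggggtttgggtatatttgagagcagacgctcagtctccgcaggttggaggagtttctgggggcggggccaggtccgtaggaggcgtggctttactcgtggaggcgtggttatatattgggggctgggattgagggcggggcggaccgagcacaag

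The Myo5c window held 3 matches to CCAT on either strand, of which CCAT and ATGG overlap once in CCATGG, the Myo5a window held 2 and the Myo10 window 1. The window of the second Myo10 start, at chr15:25752956-25753205 and not printed, held 3, as many as that of Myo5c. Whether the count goes with the size of the difference was not tested. At least 1 match was present in 7 of the 9 member promoters and in 77.4% of all 32851 promoters of the same length, so most promoters hold these letters. The longer form AANATGG, also searched on both strands, was in 0 of the 9 member promoters and in 12.4% of all promoters. The shown windows also differed in base composition, with 52.8% G and C in Myo5c, 74.0% in Myo5a and 62.8% in Myo10, against a median of 52.4% over all promoters. Such letter matches describe the windows alone and are not binding sites.

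Myo5c was 6.21-fold lower in YY1bKO tissue. Its single probe set read 7.27, 7.17 and 7.25 on control replicates 1, 2 and 3, and 4.68, 4.61 and 4.49 on YY1bKO replicates 1, 2 and 3. The groups were far apart, with a gap of 2.49 between the lowest control and the highest YY1bKO array, while the spread within a group did not exceed 0.19. Means were 7.23 ± 0.05 and 4.59 ± 0.10 (SD, n = 3) for control and YY1bKO, a difference of -2.64, the third most negative of all genes. On the linear scale the probe set went from between 144 and 154 to between 22.5 and 25.7. It passed 59.0% to 60.6% of all probe sets on the control arrays and 24.8% to 27.6% on the YY1bKO arrays. The table holds no detection call, so whether the lower level is above background cannot be read from it.

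Mal2 was also far lower, at a measured difference of -2.99, or 7.94-fold, which rests on YY1bKO values near the bottom of the array scale. Its single probe set read 6.48, 5.94 and 6.39 on control replicates 1, 2 and 3. On YY1bKO replicates 1, 2 and 3 it read 3.05, 3.39 and 3.39. The groups did not overlap, and the gap between them, 2.54, was several times the range within the control arrays, 0.54, or the YY1bKO arrays, 0.34. Means were 6.27 ± 0.29 (SD, n = 3) and 3.28 ± 0.20 (SD, n = 3). In linear intensity Mal2 went from 61.2 to 89.0 down to 8.30 to 10.5, near the lowest intensity of the table, 4.91. It passed 43.4% to 50.1% of all probe sets in control but 4.26% to 9.08% in YY1bKO tissue, where the order of values may not be reliable. With no detection call in the table, the fold is that of the deposited values and its precision there is unknown. Control replicate 2 was the lowest control for both Mal2 and Myo5c, and without it their differences were -3.15 and -2.67.

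**Figure D1:**
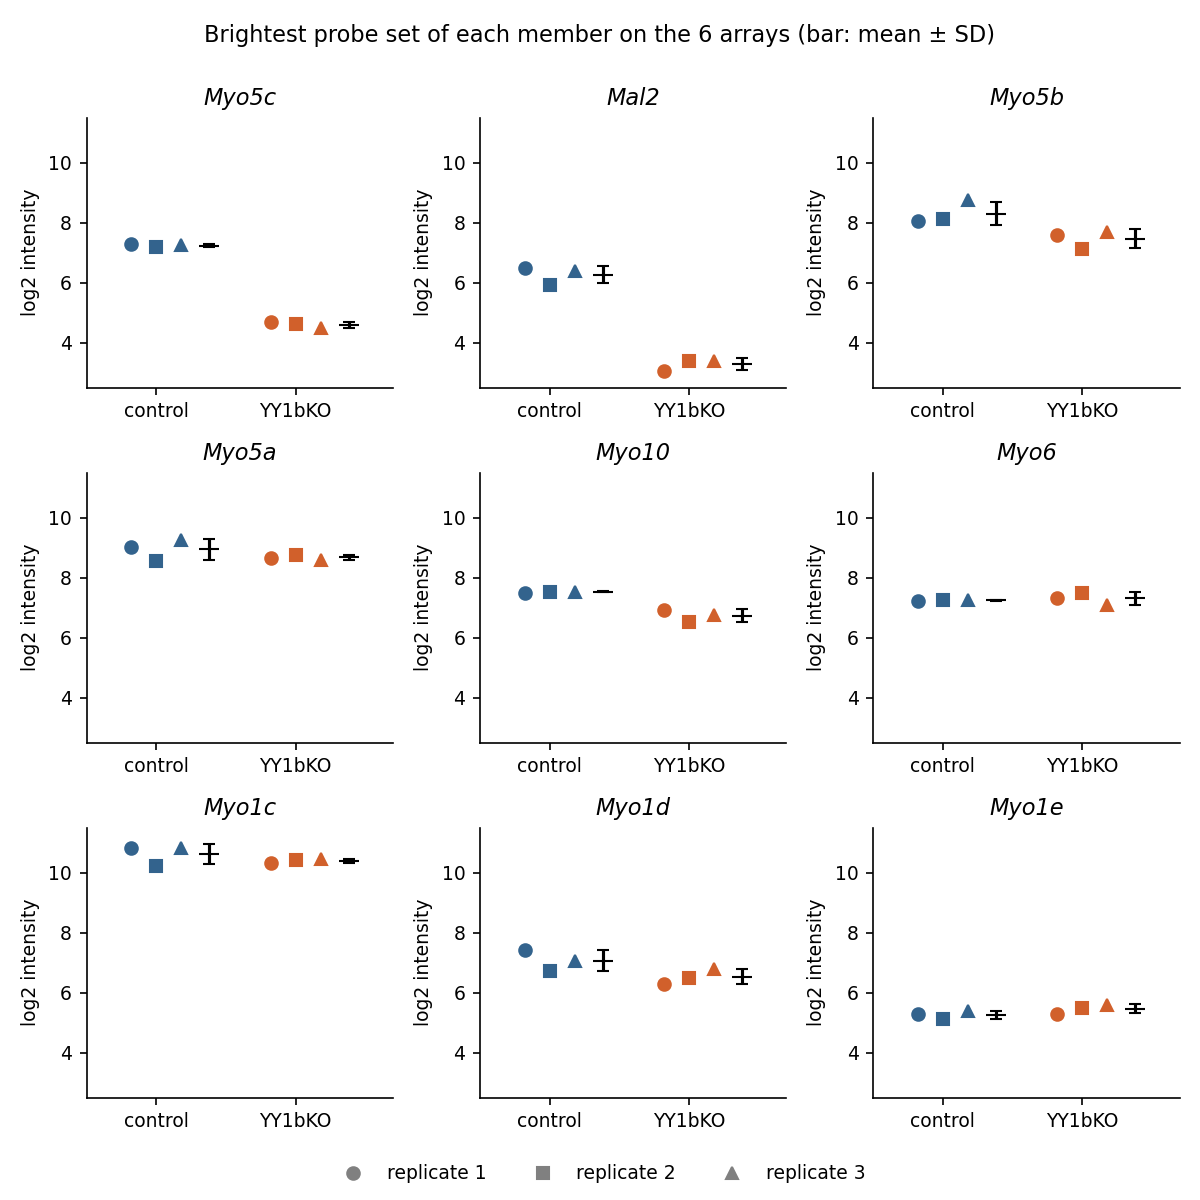
Log2 intensity (vertical axis) of the brightest probe set of each of the 9 genes on the 3 control and 3 YY1bKO arrays, with symbols for replicates and a bar for the mean ± SD (n = 3); levels cannot be compared between panels because probe sets differ in affinity. Myo5c, Mal2, Myo5b and Myo10 have groups that do not overlap, and in the other 5 panels the groups overlap.

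The other class V motors differed by less than Myo5c, but since Myo5c was chosen by its difference, this is no finding about the class. Myo5b read 8.04, 8.10 and 8.75 on the control arrays in replicate order and 7.60, 7.11 and 7.69 on the YY1bKO arrays. All 3 YY1bKO values lay below all control values, at means of 8.30 ± 0.39 and 7.47 ± 0.31 (SD, n = 3) and a difference of -0.83, or 1.78-fold lower. Control replicate 3 stood above the other controls, and without it the difference was -0.60. The gene has a single probe set here.

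Myo5a gave opposite readings from its 2 probe sets. The brighter one read 9.02, 8.55 and 9.25 in control and 8.66, 8.76 and 8.60 in YY1bKO tissue, a difference of -0.27 with groups that overlap. The dimmer one read 8.27, 7.95 and 8.26 in control and 8.67, 8.72 and 8.71 in YY1bKO tissue. It was higher on all 3 YY1bKO arrays, by 0.54, and its groups did not overlap. Averaged over both, the difference of Myo5a was 0.14, so the direction of the gene depends on the probe set, and which transcripts each probe set detects was not tested. Without control replicate 2, which gave the lowest control value in both probe sets, the brighter probe set stood at -0.47 and the other at 0.44, while without control replicate 3 they stood at -0.12 and 0.59.

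Myo10, the filopodial motor, was lower in 2 of its 3 probe sets by about the same amount. The brightest read 7.50, 7.53 and 7.53 in control and 6.93, 6.51 and 6.75 in YY1bKO tissue. The second read 7.60, 7.51 and 7.33 in control and 6.88, 6.77 and 6.50 in YY1bKO tissue. Neither showed any overlap between the groups, and their differences were -0.79 and -0.77. The third was dim in both groups, under the overall probe set median, at 4.60 ± 0.12 and 4.43 ± 0.16 (SD, n = 3), its difference was -0.17 and its groups overlapped. The mean over all 3 was -0.57.

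Myo6, the motor of the opposite direction, gave 3 overlapping readings around 0. Its brightest probe set read 7.22, 7.24 and 7.25 in control and 7.32, 7.50 and 7.09 in YY1bKO tissue, a difference of 0.07 that turned to -0.03 without YY1bKO replicate 2. The other 2 probe sets gave 0.11 and -0.29. The 3 Myo6 probe sets thus showed no common direction.

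Among the class I motors, Myo1c, which takes part in the docking of GLUT4 vesicles in fat cells, had 4 probe sets. The brightest read 10.82, 10.22 and 10.82 in control and 10.33, 10.41 and 10.44 in YY1bKO tissue, a difference of -0.23 with overlapping groups. Control replicates 1 and 3 lay above all YY1bKO arrays and control replicate 2 below them. The difference was -0.43 without control replicate 2 and -0.13 without either of the other controls. The other 3 probe sets gave -0.40, -0.24 and 0.18, and of these the last was the one without overlap, at a gap of 0.004 that is far below the spread within either group.

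Myo1d, a class I motor of endosomes, read 7.41, 6.73 and 7.06 in control and 6.30, 6.49 and 6.79 in YY1bKO tissue. The difference of -0.54 came with groups that overlapped through control replicate 2 and YY1bKO replicate 3. Leaving out 1 array moved it in both directions, to -0.71 without control replicate 2 and to -0.37 without control replicate 1. Myo1e, a motor of endocytic sites and podocytes, was dim in all 3 probe sets, each under the overall probe set median. Its brightest read 5.27, 5.13 and 5.39 in control and 5.30, 5.50 and 5.58 in YY1bKO tissue, a difference of 0.20, and the other 2 gave -0.26 and -0.31. These 3 probe sets therefore did not point 1 way, and their mean was -0.12.

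**Figure D2:**
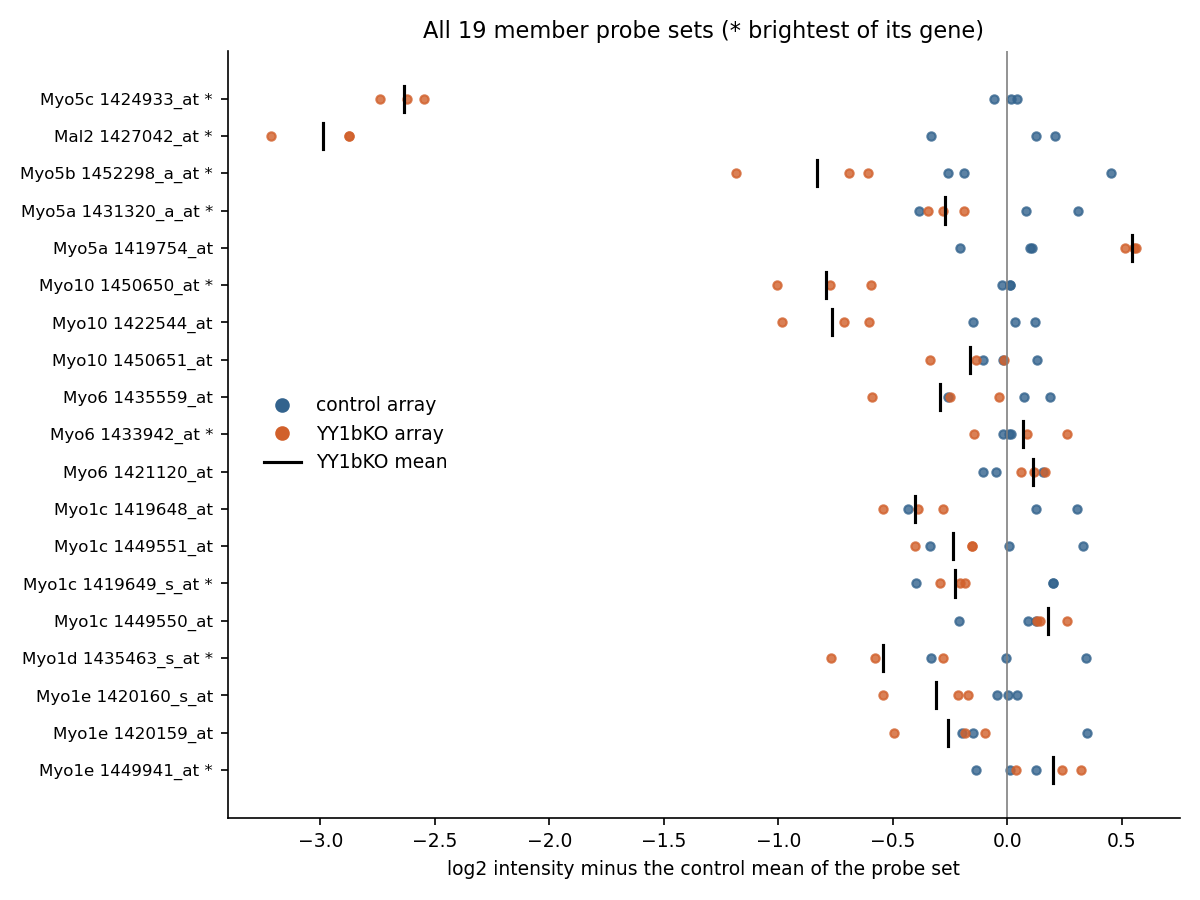
Log2 intensity of each of the 19 probe sets on every array, less the control mean of that probe set (horizontal axis), with control arrays in blue, YY1bKO arrays in orange and the YY1bKO mean as a black line. Myo5c and Mal2 lie at -2.64 and -2.99, the means of the other 17 lie between -0.83 and 0.54, and the 2 Myo5a probe sets lie on opposite sides of 0.

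Taking the brightest probe set of each gene, the median difference of the 9 genes was -0.54, against 0.04 over all genes. Over the 19 probe sets it was -0.27, against 0.03 over all probe sets. By limma's moderated test over all genes, 3 of the 9 were called lower, Myo5c, Mal2 and Myo10, and 0 were called higher, where a call is an adjusted p under 0.05 and 18.3% of all genes were called, 8.09% as lower and 10.2% as higher. At an unadjusted p under 0.05, 5 of the 9 genes were lower and 0 higher, against 14.0% and 17.9% of all genes. With dim genes left out of the fit, 6 of the 9 genes remained. Myo5c and Mal2 were themselves removed, and Myo5b and Myo10 were the members called lower. That fit called 1123 genes higher and 973 lower among all genes kept. In the fit over all probe sets, 1 of the 19 was called higher, the dimmer one of Myo5a, and 4 lower, where 16.0% of all probe sets were called, 8.83% as higher and 7.16% as lower. Groups did not overlap in 4 of the 9 genes, all lower, against 38.5% of all genes, 15.7% lower and 22.8% higher. Among the 19 probe sets 6 were lower and 2 higher without overlap, against 36.2% of all probe sets, 15.1% lower and 21.1% higher. Because the choice of genes used this same contrast, these shares show nothing beyond it.

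Control replicate 2 stood apart from the other arrays, and the values of several of these motors depend on it. It was the lowest of the 3 controls in 12 of the 19 probe sets and in 45.4% of all probe sets. Its summed intensity over 14 skeletal muscle genes was 185790, against 33814 and 41160 on the other controls and 72461 to 98448 on the YY1bKO arrays. Without control replicate 2, 7 of the 9 genes were called lower, Myo5a, Myo5b, Myo1c and Myo1d in addition, when 25.0% of all genes were called, 11.6% as lower and 13.4% as higher. For Myo5a that call concerns the brighter of its 2 opposed probe sets. The part of the muscle transcripts in these differences was not tested.

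Yy1 itself, as a check of the labels, read 9.90, 9.62 and 9.95 in control and 8.38, 8.41 and 8.38 in YY1bKO tissue (difference -1.43 ± 0.10, SE, limma adjusted p = 0.000854). Its other probe sets gave -1.71, -0.81 and -0.06, and the last, at dim values, had overlapping groups and was not called. Markers of the tissue were strong, all 9 measured brown adipocyte markers, Ucp1 and Cidea among them, lying above the overall median. Their summed intensity was 72384 to 78768 in control and 67865 to 70587 in YY1bKO tissue, without overlap, and 3 of them rose and 1 fell. Across genes, array pairs correlated at Pearson's r of 0.978 to 0.996 within control, 0.996 within YY1bKO and 0.976 to 0.985 between the groups. Precision is limited by the small number of arrays, 3 in each group. Whether replicates came from separate animals is not said in the labels, so a p-value covers just the variation among these 6 samples, possibly technical.

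Since Myo5c and Mal2 are best known from epithelia, 19 epithelial genes were set beside them. Of these, 18 were dim by the same measure. The defining adhesion gene Epcam stood at 4.41 in control and 4.49 in YY1bKO tissue, and the cadherin gene Cdh1 at 3.01 and 3.18. Their summed intensity was 585 to 605 in control and 604 to 657 in YY1bKO tissue, and 1 of the 19, the milk protein gene Csn3, rose, by 0.36 at dim values. The epithelial sums of the groups overlapped only through YY1bKO replicate 3, at 604 against 605 in control replicate 3. YY1bKO replicates 1 and 2, at 631 and 657, lay above all controls. With most of these genes dim, the sum cannot show whether epithelial cells changed.

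Some markers of blood vessels were lower in YY1bKO tissue, where 8.09% of all genes were called lower. Of 9 endothelial genes 4 fell, the junction genes Cdh5 and Cldn5 and the receptor genes Kdr and Tek, and the summed intensity was 3765 to 4590 in control and 2556 to 2819 in YY1bKO tissue. Of 7 pericyte and smooth muscle genes, Rgs5 and Pdgfrb fell, and the sum was 7848 to 11063 in control and 7042 to 7408 in YY1bKO tissue. In both lists the sums of the groups did not overlap, but the median difference was -0.53 for the endothelial and 0.20 for the pericyte and smooth muscle genes, so the sum and the median of the latter differ in sign. The part of these cells in the lower Myo10, Myo5b and Myo1d values was not tested.

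Melanocyte genes, listed because of the role of Myo5a in pigment granules, summed to 252 to 326 in control and 309 to 330 in YY1bKO tissue, with 4 of 5 under the overall median and Pmel called higher by 0.42. The sums of macrophage genes, 3591 to 6532 and 5148 to 5728, of nerve and Schwann cell genes, 1341 to 1605 and 1514 to 1654, of fibroblast genes, 7592 to 14842 and 10720 to 13165, and of white adipocyte genes, 1646 to 3337 and 2567 to 4118, overlapped between the groups. Lymphocyte genes, all 9 below the median, summed to 323 to 356 in control and 379 to 415 in YY1bKO tissue, without overlap.

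**Figure D3:**
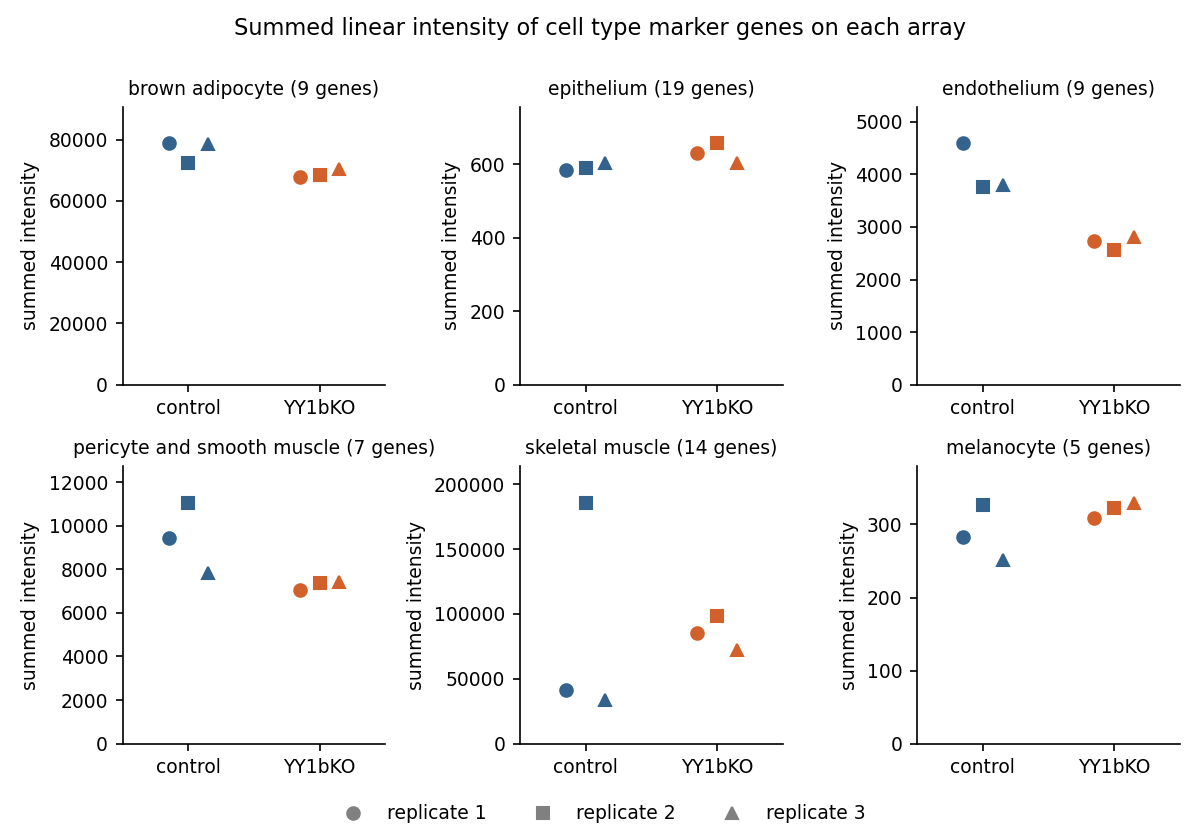
Summed linear intensity (vertical axis, from 0) of the measured marker genes of 6 cell types on each array, with symbols for replicates. Endothelial sums lie at 3765 to 4590 in control and 2556 to 2819 in YY1bKO tissue, epithelial sums of the groups overlap, and control replicate 2 has a muscle sum of 185790.

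Few of the other myosins passed the test. Of 18 measured genes for further unconventional myosins, non-muscle myosin heavy chains and their light chains, 1 rose and 1 fell, 11.1% of the list against 18.3% of all genes, and the list median was 0.05. Myh14, a non-muscle myosin heavy chain, read 6.48, 7.38 and 6.87 in control and 5.90, 6.30 and 5.62 in YY1bKO tissue. It fell by 0.97 (limma adjusted p = 0.0471), with no overlap. Myo15, the motor of hair cell stereocilia, rose by 0.43 at dim values of 4.85 and 5.28 (limma adjusted p = 0.0463). The Myh14 call was lost when control replicate 3 or any 1 YY1bKO array was left out (adjusted p of 0.0642 to 0.147), and that of Myo15 when any 1 array other than control replicate 3 was left out (0.0564 to 0.146). Myo18a, at -0.63, and Myo7a, at 0.42, did not pass the test (limma adjusted p of 0.115 and 0.293), and Myh9, the most studied non-muscle heavy chain, gave -0.29 (limma adjusted p = 0.118).

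Of the Rab proteins, adaptors and tethers that work with these motors, 34 were measured, and 3 rose and 1 fell, 11.8% of the list, with a median of 0.00. The clearest was a cargo. Slc2a4, which encodes GLUT4, read 10.49, 10.95 and 10.79 in control and 11.82, 11.76 and 11.62 in YY1bKO tissue, a rise of 0.99 ± 0.13 (SE, limma adjusted p = 0.005) without overlap, and its second probe set gave 1.18. Spire2, an actin nucleator that works with class V motors, rose by 0.49, and Gipc1, an adaptor of Myo6, by 0.45 (limma adjusted p of 0.0186 and 0.0203). Sytl4, a Rab27 effector on secretory granules, fell by 0.47 (0.0298), while its second, dimmer probe set gave 0.11. Spire2, Gipc1 and both Sytl4 probe sets lay under the overall probe set median. The Spire2 call was lost when any 1 YY1bKO array was left out (adjusted p up to 0.0756), that of Gipc1 also when control replicate 1 was (up to 0.0814), and that of Sytl4 when any 1 array other than control replicate 2 was (up to 0.108). The Slc2a4 call was kept whichever array was left out. Without control replicate 2 the list held 4 higher and 4 lower genes.

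The Rab partners of class V motors gave small differences. Rab10, which serves GLUT4 vesicles, gave -0.02, Rab11a 0.08, Rab8a -0.28 and Rab27a 0.01, none called (limma adjusted p of 0.939, 0.592, 0.244 and 0.963). Rab25, an epithelial relative of Rab11, gave 0.01 at dim values, and the values of Rab27a were dim too. Adaptors and tethers that were not called included Mlph at 0.01, Dab2 at -0.20 and the exocyst subunit Exoc7 at -0.43 (limma adjusted p of 0.976, 0.303 and 0.0787). Mlph was dim in both groups.

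The relatives and partners of Mal2 moved in both directions. Of 25 measured genes of the MAL and MARVEL families and of apical transport, 5 rose and 3 fell, 32.0% of the list against 18.3% of all genes, and the list median was 0.11. Marveld1, a MARVEL-domain protein, read 10.31, 10.38 and 10.28 in control and 9.34, 9.24 and 9.21 in YY1bKO tissue. Its fall of 1.06 ± 0.08 (SE, limma adjusted p = 0.000836) came without overlap, and both other probe sets were lower too, by 0.82 and 0.38. Myadm and Plp2, membrane proteins with a MARVEL domain, fell by 0.61 and 0.53 (limma adjusted p of 0.0185 and 0.0291).

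Among the higher genes of that list, Vamp8, a SNARE protein of secretory and endosomal fusion, read 9.46, 9.42 and 9.47 in control and 10.23, 10.16 and 10.05 in YY1bKO tissue, a rise of 0.69 ± 0.08 (SE, limma adjusted p = 0.00322). Tpd52, a known binding partner of Mal2, read 8.43, 8.69 and 8.41 in control and 9.01, 8.95 and 8.92 in YY1bKO tissue. It rose by 0.45 (limma adjusted p = 0.0231), and its second probe set gave 0.43. Pigr, the receptor that carries immunoglobulin A across epithelia, rose by 1.19 ± 0.10 (SE, limma adjusted p = 0.00121), at dim values of 3.72 and 4.91. Mal, the founding family member and also a marker of myelinating cells, rose by 0.40 (limma adjusted p = 0.0314). Its second probe set gave 0.28, with overlapping groups, and was not called, and both lay under the overall probe set median. Marveld2, a tight junction protein at dim values, rose by 0.41 (limma adjusted p = 0.0317). Of the 8 calls, those of Marveld1, Vamp8 and Pigr were kept whichever array was left out. The calls of Tpd52 and Mal were lost when any 1 array other than control replicate 2 was left out, those of Marveld2 and Plp2 when control replicate 1 or any 1 YY1bKO array was, and that of Myadm when any 1 YY1bKO array was (adjusted p of 0.0538 to 0.114 over these). Tpd52l1 gave -0.77 and Muc1 0.50, and neither passed the test (limma adjusted p of 0.213 and 0.0531).

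**Figure D4:**
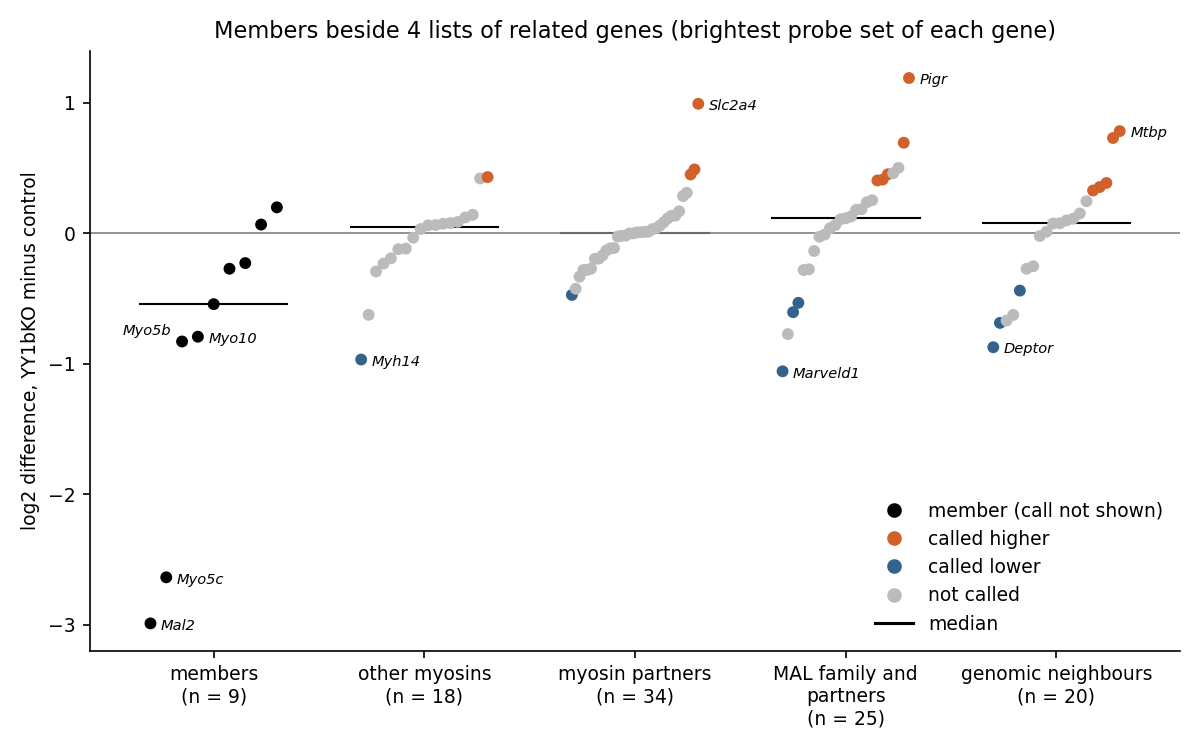
Log2 difference, YY1bKO minus control (vertical axis), of the 9 genes and of 4 lists of related genes, 1 point a gene, with called genes coloured and the list median as a line. Myo5c and Mal2 lie below -2.5, and every gene of the 4 lists lies between -1.06 and 1.19.

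Genes that lie beside Myo5c and Mal2 in the genome differed in both directions. That they differed by less than Myo5c and Mal2 follows from the choice of both genes by their differences. Myo5c lies on chromosome 9 between Myo5a and Gnb5, a G protein subunit gene. Gnb5 stood at 7.68 ± 0.09 and 7.66 ± 0.08 (SD, n = 3) for control and YY1bKO, a difference of -0.02 (limma adjusted p = 0.894), and Myo5a gave the opposed readings above. Further out, Gm19531 rose by 0.73, Arpp19, a phosphatase regulator gene, by 0.38 and the kinase gene Mapk6 by 0.33 (limma adjusted p of 0.00526, 0.0337 and 0.0494).

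Mal2 lies on chromosome 15 between Tnfrsf11b and Ccn3, genes of secreted proteins. Tnfrsf11b gave 0.08 at dim values. Ccn3 gave -0.67 with a control SD of 1.12, and neither was called (limma adjusted p of 0.654 and 0.42). Deptor, an inhibitor of the mTOR kinase, fell by 0.87, Ext1, an enzyme of heparan sulphate synthesis, by 0.69 and the cohesin gene Rad21 by 0.44, while Mtbp rose by 0.78 and the mitochondrial ribosome gene Mrpl13 by 0.35 (limma adjusted p of 0.0288, 0.00837, 0.0281, 0.0022 and 0.026). Over both places, 5 of the 20 neighbours rose and 3 fell, 40.0% of them against 18.3% of all genes, with a median of 0.07 against 0.04 and a range of -0.87 to 0.78. The other probe sets of Arpp19, Mapk6, Mrpl13 and Rad21 differed in the same direction as the brightest, but none was called. Those of Deptor gave -1.02, called lower, and -0.57, not called. The calls of Gm19531, Mtbp and Ext1 were kept whichever array was left out. Those of Arpp19, Mrpl13 and Deptor were lost when any 1 array other than control replicate 2 was left out, that of Rad21 when control replicate 1 or any 1 YY1bKO array was, and that of Mapk6 whichever of the 6 arrays was (adjusted p of 0.0554 to 0.139).

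**Figure D5:**
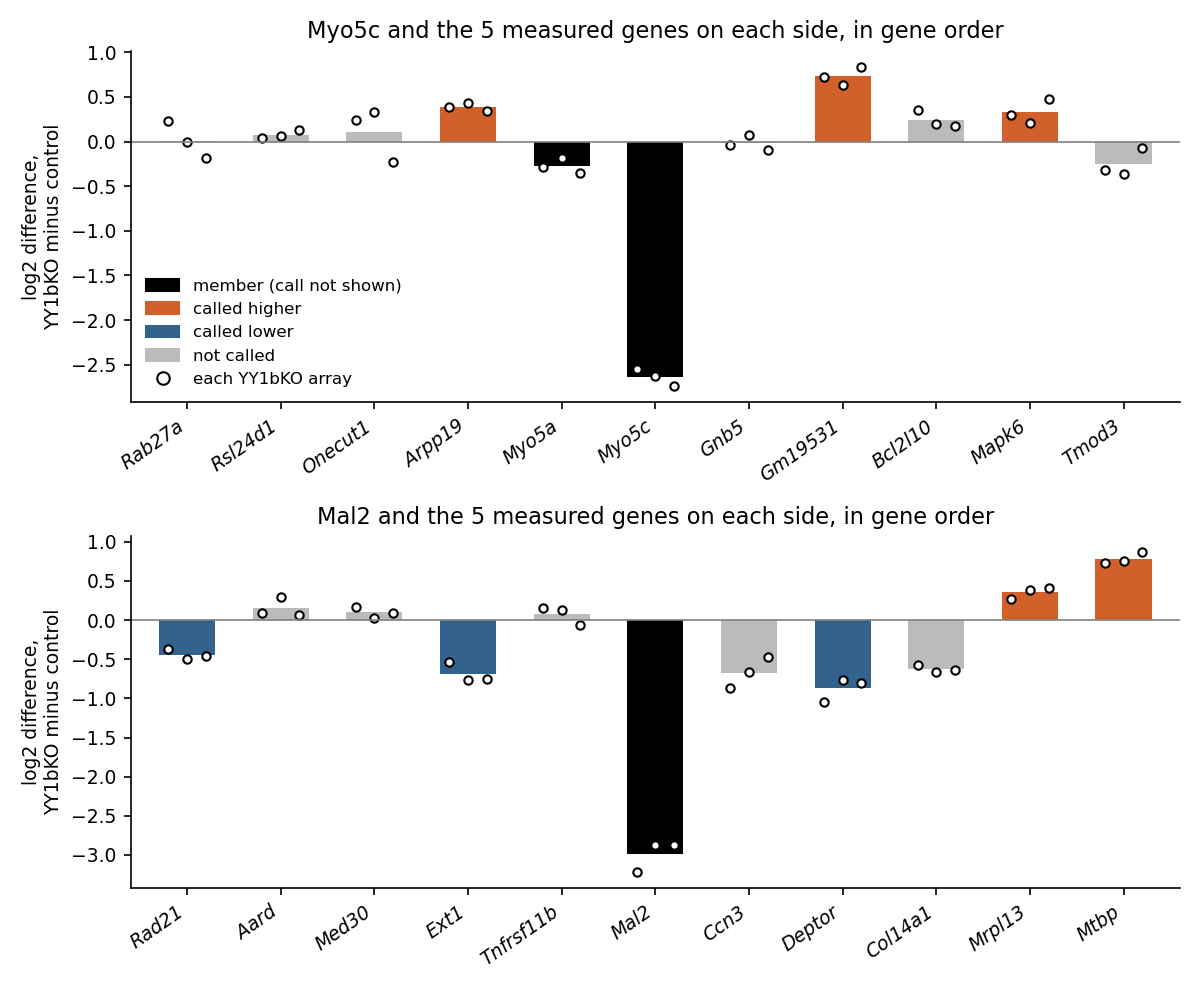
Log2 difference, YY1bKO minus control (vertical axis), of Myo5c and Mal2 and of the 5 measured genes on each side in gene order, with bars for group differences and open circles for each YY1bKO array less the control mean. Myo5c lies at -2.64 and Mal2 at -2.99, both chosen by their differences, and the neighbours lie between -0.87 and 0.78.

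The genes most alike to Myo5c over the 6 arrays, by the root mean square difference of log2 values centred on each gene's control mean, were Cpn2, S100b, Ptgds, Suclg2 and Zdhhc2, at 0.23, 0.25, 0.28, 0.29 and 0.30, and Mal2 came seventh at 0.33. Those most alike to Mal2 were Myo5c at 0.33, Pm20d1 at 0.36, Zdhhc2 at 0.36, Nipsnap1 at 0.39 and S100b at 0.40. All of these were lower in YY1bKO tissue at differences of -3.40 to -2.25, so that the measure mainly picks genes of a like fall. S100b, a calcium-binding protein, and Zdhhc2, a palmitoyltransferase, were near both.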

How the data were processed

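The authors deposited a table of intensities on a linear scale, from 4.91 to 21219, for 22690 probe sets on 6 arrays. RMA (background correction, equalised array distributions, summarised probes) is named in the submitters' processing notes, and its options are not stated there. RMA can pull in the differences of dim probe sets, which may therefore understate a change, and how far this holds here was not tested.

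Intensities were turned into log2 without a pseudocount. After removing 64 control probe sets, 20380 had 1 gene symbol, 691 several and 1555 none. Of several probe sets naming a gene, the brightest on average across the 6 arrays stood for it. The groups were compared by lmFit and eBayes of limma 3.58.1 under R 4.3.3, two-sided, with Benjamini-Hochberg adjustment over all 12393 genes, and separately over all probe sets. SE is limma's moderated standard error. The script was tested on simulated data. No p is given for the 9 genes, since they were chosen on this contrast, and they and the lists were chosen with earlier results of these data known. Named genes were the 9, Yy1, up to 6 called genes per list and direction by p, the immediate neighbours of Myo5c and Mal2, the 5 genes most alike to each, and markers. Other genes were named after their values were seen. Some list genes are not analysed here.

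Alternatives were leaving out dim genes (mean not above 6.48, the overall probe set median), the mean over a gene's probe sets, quantile normalization, median centring, trend and robust options, the replicate number as a block, and each array left out. Scan dates and batches were not used here.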

Additional observations from a re-analysis of the deposited data

How the results depend on the processing

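The mean over probe sets moved the differences of 3 of the 9 genes by 1 SD between replicates or more, to 0.14 for Myo5a, -0.12 for Myo1e and -0.57 for Myo10. Leaving out dim genes, the trend and robust options and the block cannot move a difference, only its call. Leaving out 1 array gave -2.68 to -2.58 for Myo5c and -3.15 to -2.87 for Mal2. The number of the 9 called lower was 3 to 7 with 1 array left out, highest without control replicate 2. With dim genes left out it was 2 of the 6 genes kept, Myo5b and Myo10, and the filter had removed Myo5c and Mal2. That fit called 1123 genes higher and 973 lower among all genes kept. Under these alternatives 0 of the 9 were called higher by limma (0 or 1 at an unadjusted p under 0.05).

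Over all genes, leaving out 1 array gave 547 to 1661 higher and 466 to 1439 lower calls, and over all probe sets 808 to 2607 and 699 to 2473. The ranges were 0 to 1 higher and 0 to 1 lower for the other myosins (1 to 2 and 1 to 4 at an unadjusted p under 0.05), 1 to 4 and 0 to 4 for myosin partners (3 to 5 and 1 to 5 unadjusted), 2 to 6 and 1 to 4 for the MAL list, and 2 to 4 and 1 to 4 for genomic neighbours. When dim genes were left out, which also means fewer genes tested, the other myosins held 0 higher and 0 lower (limma; 0 and 2 unadjusted), myosin partners 1 and 0 (2 and 2 unadjusted), the MAL list 2 higher and the neighbours 3 higher. The mean over probe sets left 3 higher neighbours, and quantile normalization 0 higher other myosins (1 unadjusted); the cause was not tested.

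Deviations from the group means correlated at -0.246, 0.112 and 0.261 between same-numbered arrays, and 1 of 3 matched its own number best. With so few arrays this cannot show whether replicate numbers pair the samples. With the replicate block, 671 genes were higher and 639 lower, 1108 probe sets higher, the other myosins held 0 and 2, the MAL list 2 higher and the neighbours 2 higher, and Myo5b joined the called genes of the 9 at -0.83.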
